A study of Homo sapiens with 2 samples.

Results

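REST and 8 genes that mark neuroendocrine and neuronal cells (SYP, CHGA, CHGB, SCG2, VGF, STMN3, BDNF and INSM1) were examined for LSD1 peaks. LSD1, the product of KDM1A, is a demethylase of histone H3 lysine 4 that acts within corepressor complexes. A peak was assigned to a gene where it overlapped the gene body or lay within 20 kb of it, with gene bodies from GENCODE on hg19. This gave 26 of the 20110 LSD1 peaks, at 8 of the 9 genes. The genes were given by name, with earlier results of these data known, and the rule uses position alone. Chromatin immunoprecipitation followed by sequencing (ChIP-seq) had been done in PC-3M-luc, a human prostate carcinoma line that carries luciferase and derives from PC-3 through its metastatic subline PC-3M. The groups were LSD1, immunoprecipitated with an anti-LSD1 antibody, and Input, the genomic DNA of the same line, with 1 library each. Both libraries had the genotype label Control and came from 1 cell line at the same passage range, so no genotype or treatment was compared.

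REST is a zinc-finger repressor that keeps neuronal genes silent in non-neuronal cells. It binds a long DNA element, RE1 (repressor element 1), through its zinc fingers and recruits the CoREST complex, in which RCOR1 scaffolds LSD1 and the histone deacetylases HDAC1 and HDAC2, and a separate SIN3 complex. In prostate cancer, chromogranin A (CHGA) and synaptophysin (SYP) are the usual markers of neuroendocrine differentiation, a state in which REST activity is typically low. The peak list gives positions of LSD1 on DNA. It measures neither REST binding nor the expression of any gene.

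RE1 matches near the start sites of these genes are shown first, because the results turn on which of them lay under an LSD1 peak. A match was defined as the left element TTCAGCACC and the right element GGACAGCGC separated by 2 bases, on either strand, with at most 3 mismatches over their 18 bases. Each sequence is read 5′ to 3′ on the strand of the match from hg19, with the left and right elements in capitals and the spacer in lower case.
SYP, chrX:49056582-49056601, minus strand: TCCAGCACCgtGGACAGAGC
CHGA, chr14:93389868-93389887, plus strand: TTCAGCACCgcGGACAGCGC
CHGA, far upstream, chr14:93380588-93380607, plus strand: TTCAGGACCacGGACAGCAG
CHGB, chr20:5892350-5892369, plus strand: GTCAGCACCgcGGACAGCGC
VGF, at the start site, chr7:100808840-100808859, plus strand: TTCAGCACGctGGACAGCGC
VGF, in exon 2, chr7:100807865-100807884, plus strand: AGCAGCACCgcGGCCAGCGC
BDNF, chr11:27742224-27742243, minus strand: TTCAGCACCttGGACAGAGC

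Positions within a match are counted from 1 at its 5′ end, with the spacer at positions 10 and 11. The CHGA match in the first intron equalled both elements. The CHGB match differed by T1G, the start-site match of VGF by C9G and the BDNF match by C18A. The SYP match differed by T2C and C18A. The far upstream CHGA match differed by C6G, G19A and C20G, and the VGF match in exon 2 by T1A, T2G and A14C. The remaining pair of the 9 matches in these windows, each with 3 mismatches, lay in an intron of STMN3 and 9270 bp upstream of VGF. REST, SCG2 and INSM1 had no match in their windows. Because several of these genes are textbook REST targets, the presence of RE1 sequence at them is background to the choice of genes rather than an observation on LSD1.

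The 4 genes of the granin and secreted-peptide class (CHGA, CHGB, SCG2 and VGF) also shared a palindromic cAMP response element, TGACGTCA, close upstream of the first annotated transcription start site (TSS). The 150 bases before that TSS are shown for CHGA, SCG2 and VGF on the gene's strand, with this element in capitals, since SCG2 and VGF carried an LSD1 peak there and CHGA did not.
CHGA, chr14:93389345-93389494, plus strand: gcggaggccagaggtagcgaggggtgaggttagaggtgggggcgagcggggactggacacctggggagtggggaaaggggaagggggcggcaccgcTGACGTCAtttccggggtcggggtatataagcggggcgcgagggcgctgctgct
SCG2, chr2:224467080-224467229, minus strand: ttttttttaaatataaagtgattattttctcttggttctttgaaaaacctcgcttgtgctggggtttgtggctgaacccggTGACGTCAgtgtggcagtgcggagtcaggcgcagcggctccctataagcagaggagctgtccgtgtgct
VGF, chr7:100808851-100809000, minus strand: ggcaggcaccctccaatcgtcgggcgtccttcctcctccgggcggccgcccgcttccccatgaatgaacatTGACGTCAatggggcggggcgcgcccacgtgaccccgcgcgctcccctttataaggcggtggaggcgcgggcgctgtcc

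The element began 54 bases before the TSS of CHGA, 69 before that of SCG2 and 79 before that of VGF. In the 250 bases before the first TSS it occurred at 1.88% of 19881 protein-coding genes. Among the 374 genes that had it, 73.3% had the canonical TSS under an LSD1 peak (exact 95% interval 68.5 to 77.7). The share was 54.2% of all genes and 75.9% of those with a CpG-rich promoter (defined below), so 73.3% is near the latter. The element was sought before the first TSS, which can differ from the canonical TSS. The SP/KLF box GGGCGG, counted on both strands, occurred before 8 of the 9 genes and before 49.1% of all genes, with SCG2 the gene that lacked it. The E-box CACGTG occurred before VGF alone of the 9 and before 7.17% of all genes. These counts describe the letters in the window and not the binding of any factor.

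The authors' score of a peak was read as a multiple of −log10 p, from its values and the caller named, which no label states. It ranged from 50 to 3226 with a median of 206, and was used for description and ranking alone. The value 3100 was shared by 206 peaks, which the score does not rank among themselves. Read numbers are not given in the sources used here, and the precision of single peaks is therefore unknown. There was 1 library per group, so there is no replicate error and no test across samples. Where a gene is said to have no peak, LSD1 may still be present below the threshold of the peak call. Exact binomial intervals cover counting error only.

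LSD1 peaks were found near most of these genes, about as often as near protein-coding genes in general, and their scores covered nearly the whole range of the list. Of the 9 genes, 8 had a peak in or within 20 kb of the gene body, against 71.4% of all 19881 protein-coding genes with a canonical transcript. A peak reached within 1 kb of an annotated TSS at 7 of the 9, against 58.8% of all genes. The canonical TSS itself lay under a peak at 6 of the 9 (REST, SYP, CHGB, SCG2, VGF and BDNF), against 54.2%. CpG-rich promoters (GC content above 55% and observed over expected CpG above 0.65 in the 1000 bp around the canonical TSS) were present at 8 of the 9 genes and at 56.6% of all genes. Of those 8, 5 had the canonical TSS under a peak, against 75.9% of all CpG-rich promoters. With 9 genes the counts are descriptions, and the first 3 shares lie near those of all genes.

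The 26 peaks had a median score of 173 (51.6 to 3100) and a median width of 1617 bp (634 to 6510), beside a median score of 206 and width of 1649 bp over all peaks. Of the 26, 15 scored below the list's median. Canonical start sites of these genes lay under 6 peaks, alternative start sites alone under 2, and 2 further peaks lay in a gene body away from any start site of that gene. The other 16 lay outside the gene bodies, and 7 of these covered a start site of a neighbouring protein-coding gene. The highest score of the 26 was the repeated value 3100, at a 5201 bp peak 9423 bp downstream of STMN3. It belonged to such a neighbour: the peak covered start sites of GMEB2 and of the long non-coding RNA gene MHENCR. Nearness by the 20 kb rule and a position at the gene's own promoter were therefore separate properties, and they are given separately below. Peaks covered between 0% (INSM1) and 27.8% (VGF) of the window of a gene, with a median of 6.0% over the 9 and of 2.44% over all genes.

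**Figure D1:**
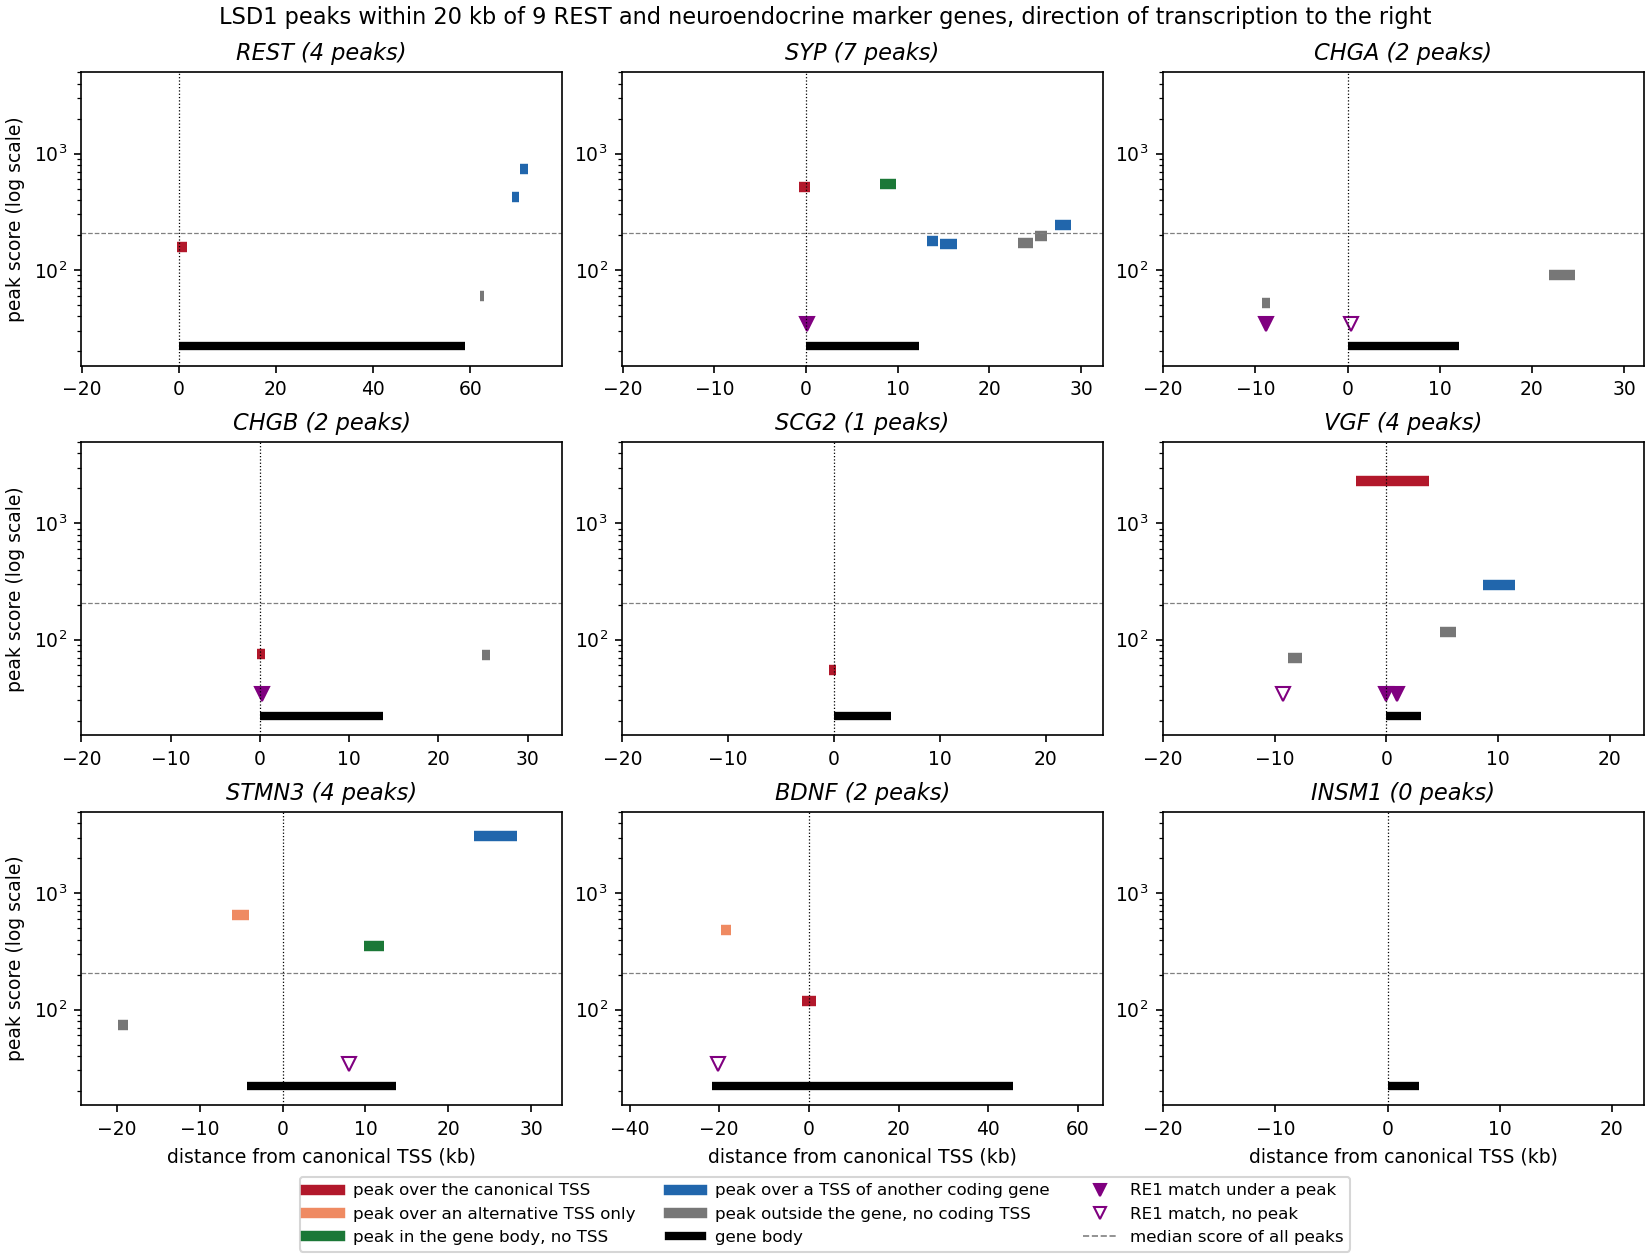
LSD1 peaks around each of the 9 genes. The x axis is the distance from the canonical TSS in kb with transcription to the right, each horizontal bar spans a peak at the height of its score (log scale), black bars are gene bodies, and triangles are RE1 matches, filled where a peak covers them. The VGF start site lies under the broad peak of score 2302, the CHGA start site and its first RE1 match have no peak, and INSM1 has none in its window.

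REST itself had a modest promoter peak. It spanned chr4:57773728-57775830 (2103 bp), covered the canonical TSS at 57774066 and 6 of the 7 annotated start sites, and scored 158, at percentile 43.1 of all peaks. Among the 11698 protein-coding genes with a promoter peak, counting the highest-scoring one per gene, REST stood at percentile 15.3. No other peak overlapped the gene body of 58933 bp. A peak of score 59.0 lay 3079 bp beyond the 3′ end of the gene within NOA1, a mitochondrial GTPase gene. A pair of peaks with scores of 422 and 732 lay 9757 and 11351 bp beyond it, over the start sites of NOA1 and of POLR2B, which encodes a subunit of RNA polymerase II. On the upstream side the next peak was 376769 bp away.

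The granins are acidic proteins of dense-core secretory granules. Among the genes examined, SCG2 and CHGB had the lowest-scoring promoter peaks, and CHGA had none, as did INSM1, which is not a granin gene. VGF, placed above in the same granin and secreted-peptide class, went the other way, with the highest-scoring promoter peak (2302). CHGB, which encodes chromogranin B, had a peak of 896 bp over its TSS (chr20:5891834-5892729) with a score of 74.96, at percentile 4.0 among genes with a promoter peak. SCG2, which encodes secretogranin II, had 1 peak of 634 bp over both annotated start sites (chr2:224466895-224467528) with a score of 54.9, at percentile 0.893. CHGA had no peak over the gene body or its promoter. Both of its assigned peaks lay outside, at chr14:93380203-93381072, 8423 bp upstream (score 51.6), and at chr14:93411326-93414159, 9696 bp downstream within ITPK1, an inositol phosphate kinase gene (score 91.0). CHGA, CHGB and SCG2 thus had no peak above 91.0, below the median of the whole list. The second CHGB peak, with a score of 74.3, lay 10989 bp downstream in TRMT6.

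The narrow CHGB peak held the RE1 match shown above, 78 bp from the peak midpoint and 203 bp downstream of the canonical TSS in the first intron. The upstream CHGA peak held a match with 3 mismatches, 40 bp from the midpoint of the 870 bp peak. Its score of 51.6 was near the list's lowest of 50. The CHGA match that equalled both elements, 382 bp downstream of the TSS in an intron, lay under no peak, and the nearest peak was 8796 bp away. SCG2 had a peak and no RE1 match, and its promoter was the single one of the 9 that was not CpG-rich, with a GC content of 37.1%.

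VGF, a secreted neuropeptide precursor of dense-core granules, differed from CHGA, CHGB and SCG2 in the size of its peak. A peak of 6510 bp (chr7:100805062-100811571) covered the whole gene of 3061 bp, with a score of 2302 at percentile 97.9 of all peaks and percentile 95.4 among genes with a promoter peak. It reached 2721 bp upstream of the TSS. The peak held both RE1 matches shown above, 533 and 442 bp from its midpoint, the first spanning the TSS in the 5′ untranslated region of exon 1 and the second in coding sequence. Further VGF peaks scored 298 at the start site of AP1S1, 117 within AP1S1 over MIR4653, and 69.0 in NAT16. The cAMP element and an RE1 match near the TSS were thus present together at VGF, CHGB and CHGA, of which the promoter peaks of VGF and CHGB scored 2302 and 74.96 and CHGA had none.

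**Figure D2:**
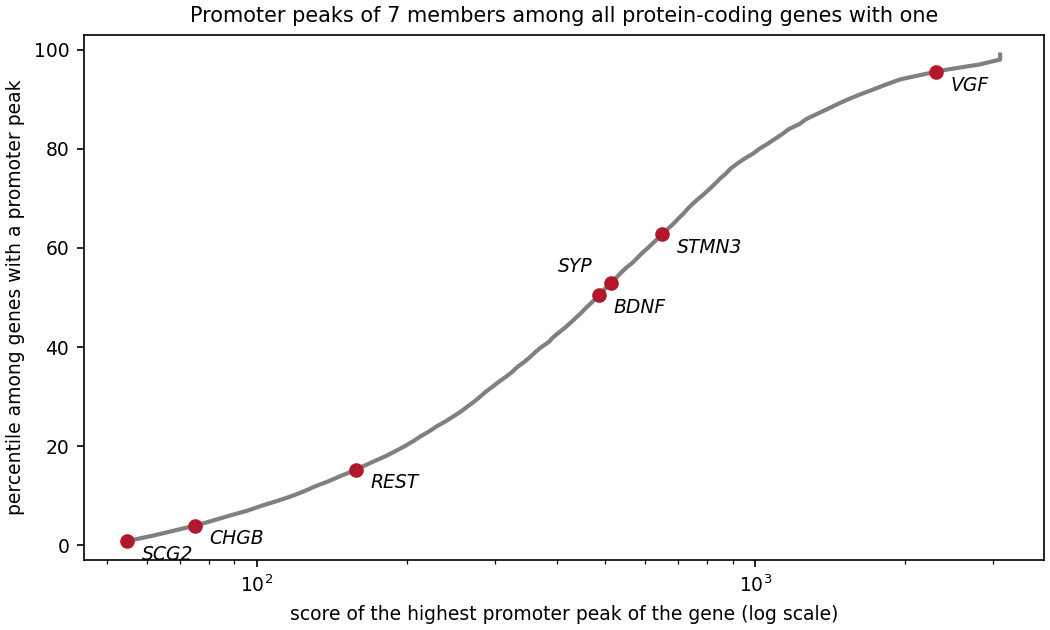
Score of the highest promoter peak of 7 genes (points, x axis, log scale) against its percentile among all 11698 protein-coding genes with a promoter peak (y axis), and the percentiles of all these genes (grey line). SCG2, CHGB and REST lie at or below percentile 15.3, BDNF and SYP lie near the middle, and VGF lies at 95.4; CHGA and INSM1 have no promoter peak and are not drawn.

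SYP, which encodes an integral membrane protein of synaptic vesicles, had the most peaks, 7, in a gene-dense part of chromosome X. A peak of 1186 bp (chrX:49056218-49057403, score 514) covered the canonical TSS at 49056652 and stood at percentile 53.0 among promoter peaks. It held the SYP match to RE1, 61 bp downstream of the TSS in the first intron and 219 bp from the peak midpoint. A second peak lay in an intron 8935 bp downstream of the TSS (chrX:49046880-49048554) with a score of 545, similar to that at the promoter. The other 5 peaks scored 168 to 241 and lay in or at the start sites of the neighbouring genes PRICKLE3 and PLP2. Peaks covered 20.2% of the SYP window.

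STMN3, a member of the stathmin family of tubulin-binding proteins that is expressed in neurons, had its canonical TSS (62284777) free of a peak. The nearest peak upstream of that TSS covered the alternative start site at 62289035 (chr20:62288784-62290864, 2081 bp, score 650.2, percentile 62.7 among promoter peaks). That peak also covered start sites of RTEL1, a DNA helicase gene transcribed in the opposite direction, so the peak cannot be given to 1 of these genes. A further peak of score 350.3 lay in an intron at chr20:62272577-62274907. The RE1 match in the STMN3 window, with 3 mismatches, lay 1870 bp from that peak and under none. A peak of score 74.1 lay 14437 bp upstream within RTEL1.

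BDNF, which encodes brain-derived neurotrophic factor, is transcribed from a series of alternative promoters, 11 annotated start sites in these models, and 7 of them lay under a peak. A broad peak (chr11:27720329-27723486, 3158 bp) covered 6 of them, the canonical TSS at 27722002 included, with a score of 119. The peak with the higher score, 486, lay 18503 bp upstream of the canonical TSS (chr11:27739463-27741547, 2085 bp) and covered 1 alternative start site. The BDNF match to RE1 lay 37 bp downstream of the next annotated start site, at 27742270, in the 5′ untranslated region of another transcript's first exon. It was 677 bp outside the second peak. No other peak lay within 20 kb, and the nearest were 146947 bp downstream and 211673 bp upstream.

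INSM1, a zinc-finger transcription factor of neuroendocrine differentiation, had no peak. Its promoter was CpG-rich, with a GC content of 76.0% in the 1000 bp around the TSS and a CpG ratio of 0.97, the highest of the 9 genes on both measures. The nearest peaks lay 315253 bp away on the side of lower coordinates (score 91.8) and 754640 bp away on the other (score 211). SCG2 was similarly isolated, with no second peak within 234629 bp. At the limit of the 20 kb rule, the most distant peaks counted lay 14767 bp from SYP (score 241) and 14437 bp from STMN3 (score 74.1). The closest ones left out lay 20974 and 22460 bp from STMN3 (scores 87.7 and 52.3), and 23399 bp from SYP (score 105).

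Taking all 9 genes, 6 had an RE1 match in the window, against 13.2% of all protein-coding genes, and 4 had one under a peak (SYP, CHGA, CHGB and VGF), against 2.61%. The covered CHGA match was the far upstream one, with 3 mismatches. A peak covered 5 of the 9 matches, against 300 of the 3150 matches in the genome (9.52%, exact 95% interval 8.52 to 10.6). Most of the 9 lay within 1 kb of a start site of their gene, as did all covered ones but the far upstream CHGA match. In the genome, peaks covered 33.2% of the 394 matches within 1 kb of a protein-coding TSS (28.6 to 38.1). The share was 6.13% of the 2756 matches farther away (5.27 to 7.09). Of the 26 peaks, 4 held a match, against 1.35% of all 20110 peaks. Of the 4 matches with at most 1 mismatch, those of CHGB and VGF lay under a peak and those of CHGA and BDNF did not. In the genome, 27.5% of 211 such matches lay under a peak (21.6 to 34). All 4 lay within 1 kb of a start site, where the genome share was 35.6% of 59 such matches (23.6 to 49.1). As the genes were chosen partly as known REST targets, these shares are a description.

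Over the genome, RE1 matches with fewer mismatches lay under LSD1 peaks more often where they were away from start sites. Of 152 matches with at most 1 mismatch more than 1 kb from any protein-coding TSS, 24.3% lay under a peak (exact 95% interval 17.8 to 32.0). The share was 11.2% (8.55 to 14.4) of 481 such matches with 2 mismatches and 3.67% (2.91 to 4.56) of 2123 with 3, while peaks cover 1.47% of the non-gap genome. These 3 intervals do not overlap; they describe sites within 1 library. Within 1 kb of a TSS the shares were 35.6% (23.6 to 49.1) of 59 matches with at most 1 mismatch and 34.6% (28.6 to 40.9) of 246 with 3. Their intervals overlap widely, and 17.6% of all bases within 1 kb of a TSS lay under a peak. Matches with no mismatch lay under a peak at 7 of 24 sites (29.2%, 12.6 to 51.1), so that CHGA was one of 17 such sites without a peak. The number of sites with no mismatch limits what can be said of them.

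Peaks that held a close RE1 match were mostly narrow and low in score, with CHGB among them and the broad, high-scoring VGF peak an exception. The 57 peaks with a match of at most 1 mismatch had a median width of 958 bp and a median score of 83.6, against 1649 bp and 206 over all peaks. The match lay a median of 60.5 bp from the peak midpoint, or 12.3% of the distance from midpoint to edge. At CHGB this distance was 78 bp in a peak of 896 bp. In the broad VGF peak it was 533 bp in 6510 bp, so the larger distance goes with a larger width.

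**Figure D3:**
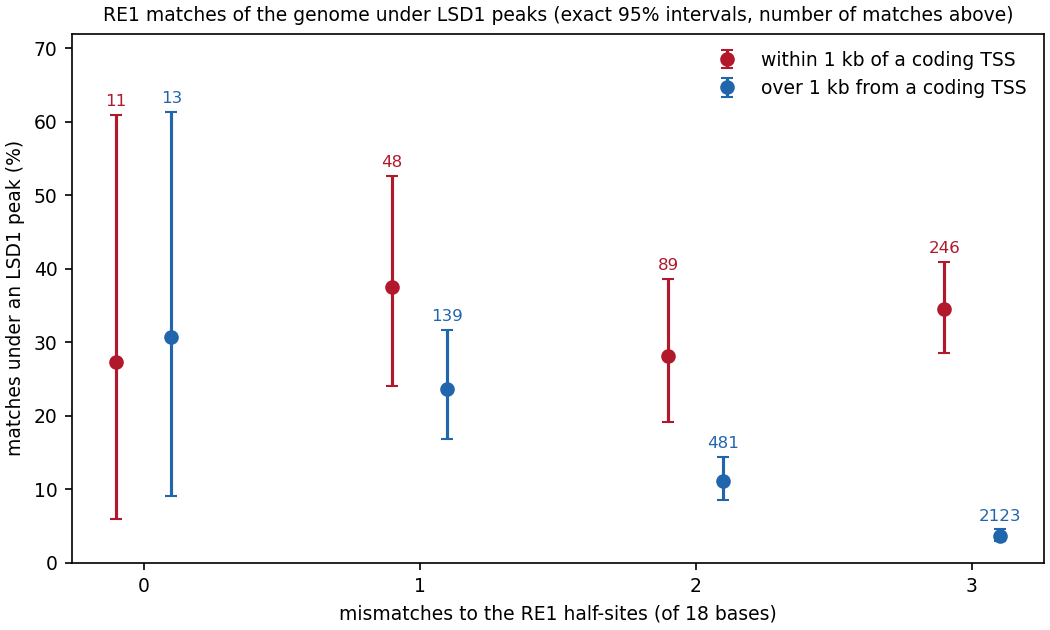
Percent of RE1 matches in the genome that lie under an LSD1 peak (y axis) by the number of mismatches (x axis), for matches within 1 kb of a protein-coding TSS (red) and farther away (blue). Error bars are exact 95% binomial intervals and the numbers above them are the matches; away from start sites the share is 3.67% at 3 mismatches and 23.7% at 1.

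Other genes of the pathway were taken from a pair of lists, which were chosen with earlier results of these data known. The genes of REST cofactors and regulators had promoter peaks at 19 of 21 members (90.5%), against 58.8% of all genes, with a median score of 705 against 480.1. RCOR1, the CoREST scaffold, led at 3100, the value that 206 peaks of the list share. Next were HDAC1, a histone deacetylase of the complex (2496), and EHMT1, a histone H3 lysine 9 methyltransferase (1902). SIN3A, the scaffold of the SIN3 complex (1442), RCOR3, a CoREST paralog (1149), and CTBP2, a corepressor (1144), followed. The members with none were RCOR2, a CoREST paralog without any peak in its window, and SRRM4, a neuronal splicing factor that produces a truncated REST isoform. SRRM4 had 1 peak in its window, of 527 bp and score 54.9, and this peak held an RE1 match with 1 mismatch. An RE1 match under a peak in the window was present at 3 of the 21, against 2.61% of all protein-coding genes. These were EHMT1, CTBP1 and SRRM4, named here after their values were seen, and the count is a description. Of the 21 promoters 18 were CpG-rich, against 56.6% of all genes, and 17 of these 18 had the canonical TSS under a peak, against 75.9% of all CpG-rich promoters; the part of CpG content in the count was not tested.

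Other neuroendocrine and neuronal genes had promoter peaks at 17 of 34 members (50%), against 58.8% of all genes, with a median score of 309. With 34 genes this share is a description, and its difference from that of all genes was not tested. CpG-rich promoters were present at 21 of the 34, and 12 of these 21 had the canonical TSS under a peak, against 75.9% of all such promoters. The highest were at STX1A, a syntaxin of synaptic exocytosis (2916), TUBB3, a neuronal beta-tubulin (2493), UCHL1, a neuronal ubiquitin hydrolase (1507), CELSR3, an atypical cadherin (745), INSM2, a paralog of INSM1 (661), and SYT1, a synaptic vesicle calcium sensor (539.8). An RE1 match under a peak in the window was present at 8 of the 34, against 2.61% of all protein-coding genes: PTPRN, SNAP25, SYN1, L1CAM, TUBB3, GRIN1, CELSR3 and MAPK8IP1, named here after their values were seen. The covered GRIN1 match had 3 mismatches, and GRIN1 had no promoter peak. The GRIN1 match with no mismatch, 94 bp from a start site, lay under no peak. PTPRN, a transmembrane protein of secretory granules, had an RE1 match with no mismatch 11 bp from a start site, under a peak of 1144 bp. The score of this peak, 57.2, was close to the list's lowest of 50, and the canonical TSS of PTPRN lay under no peak. The CHGA match with no mismatch lay under no peak, but LSD1 may be present there below the threshold. SNAP25 and L1CAM, a synaptic fusion protein and a neural adhesion molecule, had matches with 1 mismatch under peaks of 973 and 797 bp with scores of 390 and 309. The list was composed in part of known REST targets, so the share with RE1 is a description.

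**Figure D4:**
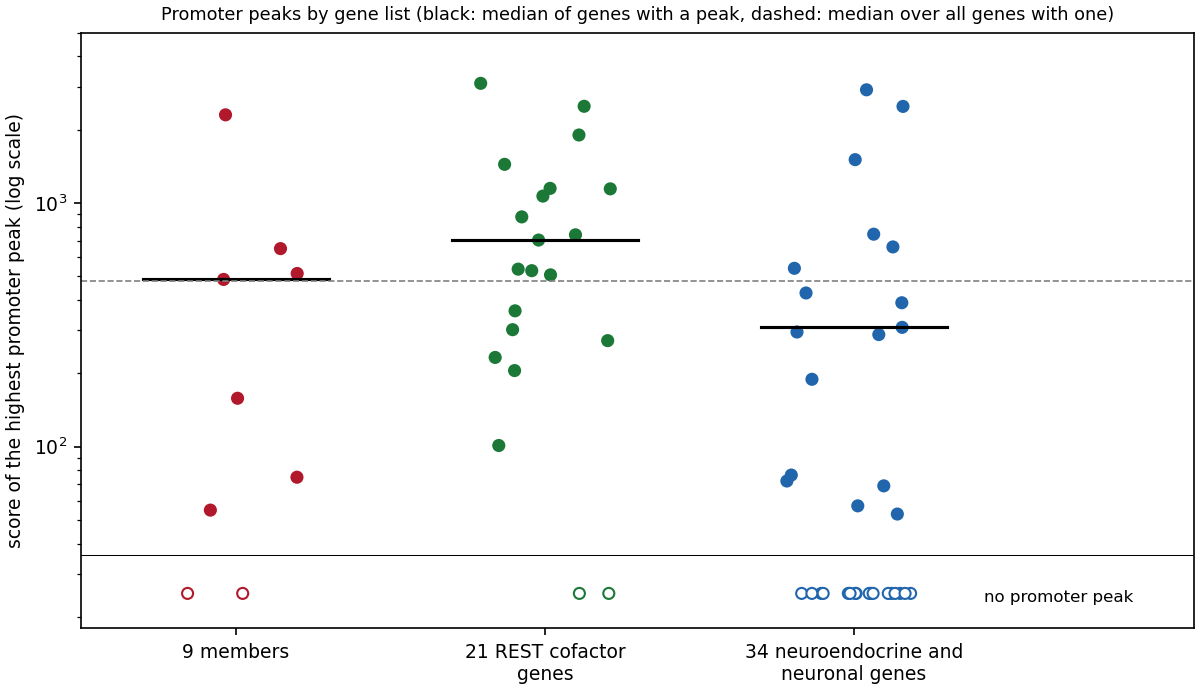
Score of the highest promoter peak (y axis, log scale) of the 9 genes, 21 REST cofactor genes and 34 other neuroendocrine and neuronal genes, 1 point per gene, with open points below the line for genes without a promoter peak. Black bars are medians of the genes with a peak (486, 705 and 309) and the dashed line is the median over all protein-coding genes with one (480.1); horizontal scatter has no meaning.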

How the data were processed

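ChIP-seq of LSD1 and Input DNA was done in PC-3M-luc cells, 1 library each. Per the labels' protocols, reads from an Illumina HiSeq were aligned to hg19 by bowtie 2. Besides Bowtie2, the submitters' processing notes list MACS 1.41 as a tool, and mm10 next to hg19 as a build; mm10 was not used. Other settings, the use of Input in peak calling, the threshold and read depth are not given in the sources used here. The authors deposited 20110 peaks, each with a position and a score. All peaks lay within the chromosomes of GRCh37 and 0 overlapped another.

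Genes and start sites came from GENCODE 44 mapped to GRCh37, using 19881 protein-coding genes with a canonical transcript. Coordinates are 1-based. Peaks were joined to genes by any overlap, with 20 kb around gene bodies and 1 kb around start sites. RE1 matches were counted over all 24 chromosomes. The genes and lists were chosen with earlier results of these data known. The rule for naming was every peak of the 9 genes, up to 6 members per list by promoter score, and the cofactor genes without a promoter peak. The code was tested on planted sequences and recovered 200 of 200 RE1 matches. Alternatives were score thresholds, peak width, window sizes, start site criteria, and mismatches and spacing of RE1. The analysis ran in Python 3.11.15 with pysam 0.24.0, pandas 2.3.3, scipy 1.17.1, numpy 2.4.6 and matplotlib 3.10.9. Of the 4 promoters with the cAMP response element, 3 are printed, and the sequence of the other is not reported here.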

Additional observations from a re-analysis of the deposited data

How the results depend on the processing

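No paired analysis was possible because each group had 1 library. Of 42 alternative values of the main counts, 33 stayed within 1.5 times and 9 moved. Among peaks with a score of at least 100, 5 of the 9 genes kept a peak under the 20 kb rule and 2 peaks held an RE1 match. With only the peaks that reached the list's median score, 5 genes had a peak, 11 peaks were left, 4 genes had a promoter peak, 2 had the canonical TSS under a peak, 2 peaks held an RE1 match, and 11 of the 34 neuroendocrine and neuronal genes had a promoter peak. These thresholds leave fewer peaks by construction. Shares over all genes and all peaks are given here without a threshold only, so these losses cannot be called particular to the listed genes. CHGA, CHGB and SCG2 had 0 peaks with a score of at least 100. A window of 5 kb left 14 peaks and none for CHGA. Of 45 peak counts for single genes, 29 stayed and 16 moved. The unknown read depth limits every statement on a missing peak.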

Other observations

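The distances from some of these genes to the next LSD1 peak are given as values, with no comparison over all genes. Beyond the POLR2B promoter peak next to REST, the next peak on chromosome 4 lay 8700794 bp from the REST gene body. INSM1 lay between peaks 315253 and 754640 bp away, and SCG2 had no peak for 554912 bp on the side of lower coordinates. Copy number and mappability in these cells were not analysed here.

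RE1 matches with no mismatch under a peak were few and are named here after their values were seen. The highest-scoring peak of them lay at LHX3, a homeobox gene of pituitary and motor neuron development, 17 bp from a start site (score 366, width 2752 bp). The next by score lay nearest to NKX1-1 (221) and CRH (92.3). Lower ones lay nearest to HCN2 and HCN4, which encode pacemaker channels (scores 68.4 and 64.8), and to KCNAB2, a potassium channel subunit gene (51.6). The site at PTPRN (57.2) is given above. Sites with no mismatch and no peak included those of GRIN1 and GRIA2, which encode glutamate receptor subunits, 94 and 120 bp from a start site, and of CHRNB2, a nicotinic receptor subunit gene, at 128 bp.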
